A study of Mus musculus with 4 samples.

Results

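Gamma-delta T cells and innate lymphocytes of mouse gingiva were sought in single-cell RNA counts by a rule on transcripts. A barcode was chosen by measured transcripts, if it held a UMI (unique molecular identifier, 1 counted molecule) of Ptprc, the pan-leukocyte antigen CD45, and passed 1 of 2 arms. The Trdc arm required at least 1 UMI of Trdc, the constant segment of the T cell receptor delta chain. The innate arm required no Cd3d, Cd3e or Cd3g UMI and at least 3 UMIs summed over Ncr1, Klrb1c, Klrb1b, Il7r, Gata3 and Rora. Barcodes with Cd79a, with 5 or more UMIs of Krt5 and Krt14 together or with 5 or more of Lyz2 were left out. The rule took 292 of 31150 kept barcodes, 115 by the Trdc arm and 177 by the innate arm, and all of these transcripts are therefore a description of the choice and not a result.

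The study compared gingiva of mice labelled Itga9-Lyz2-cHet and Itga9-Lyz2-cKO, each as a control and as PD. PD was a model of periodontitis, in which the maxillary second molar was tied with silk and given Porphyromonas gingivalis, and tissue was taken after 14 days. Itga9 encodes the integrin alpha 9 subunit and Lyz2 is a gene of myeloid cells, so both genotype labels, control libraries included, name a change of Itga9 tied to Lyz2. There is 1 library per group, the number, age and sex of animals behind each is not given in the sources used here, and no fully wild-type group is among them. Differences are therefore between single libraries, without replicates or p-values. Every interval is a 95% interval for counting error only. Sets of 4 values are in the order cHet control, cHet PD, cKO control and cKO PD.

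Gamma-delta T cells carry a receptor of gamma and delta chains and, in barrier tissues such as gingiva, are known as early sources of interleukin 17, a cytokine that calls in neutrophils and acts on epithelium. Many of these cells are set for interleukin 17 in the thymus, with the transcription factors Sox13 and Maf among those involved, and then live in the tissue. Innate lymphoid cells and natural killer cells have no rearranged antigen receptor. Type 2 innate lymphoid cells depend on Gata3 and make interleukins 5 and 13, and natural killer cells kill target cells with granzymes and perforin.

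The libraries held 58702911, 36231795, 62914870 and 21368197 UMIs, with lowest totals per barcode of 1501, 500, 1501 and 500. The deposited control libraries thus lack the shallow barcodes that the PD libraries hold. Median UMIs in the Trdc arm were 2924, 1771, 3937 and 1123, so each PD library gave fewer molecules per cell than its control. The summed UMIs of the Trdc arm were 52457, 123253, 45705 and 29461. In the cHet control 1 cell held 13595 of these, or 25.9%. Some results that rest on it are also given without it, and its total stays in the other cHet control levels. No member barcode occurred in 2 libraries, while 62 to 86 kept barcodes were shared by each pair of libraries.

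The promoters of Il17a and Il17f, the effector cytokine genes of the Trdc arm, are shown because both genes lie side by side on chromosome 1 and were read in the same cells below. Il17a was annotated at chr1:20730905-20734496 on the plus strand and Il17f at chr1:20777146-20790617 on the minus strand (GRCm38). Each sequence runs from 250 bases before to 50 bases after the RefSeq start site (GRCm38.p6), 5′ to 3′ on the gene's strand. The Il17a window is chr1:20730655-20730954 and the Il17f window is chr1:20784221-20784520. The Il17f window lies inside the annotated span given above, away from its 5′ end at 20790617. Its distances therefore hold for the RefSeq start site only. Capitals mark AGGTCA, the core letters of sites bound by many nuclear receptors, or TGACCT where it lies on the opposite strand.
Il17a: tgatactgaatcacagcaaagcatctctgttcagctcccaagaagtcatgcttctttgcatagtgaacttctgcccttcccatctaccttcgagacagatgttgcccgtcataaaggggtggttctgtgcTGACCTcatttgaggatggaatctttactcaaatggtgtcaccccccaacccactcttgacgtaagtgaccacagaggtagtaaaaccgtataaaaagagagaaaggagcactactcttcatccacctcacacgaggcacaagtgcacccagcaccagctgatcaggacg
Il17f: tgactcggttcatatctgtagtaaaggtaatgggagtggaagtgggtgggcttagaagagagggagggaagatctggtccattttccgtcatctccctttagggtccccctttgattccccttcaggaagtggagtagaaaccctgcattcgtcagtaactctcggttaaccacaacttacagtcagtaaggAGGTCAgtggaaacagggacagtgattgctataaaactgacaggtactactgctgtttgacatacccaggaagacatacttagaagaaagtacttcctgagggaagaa
Each window held 1 match, 120 bases before the start site on the opposite strand in Il17a and 58 bases before it on the same strand in Il17f. Searched on both strands, these letters occurred in 5288 of 32544 RefSeq promoters of this length (16.2%). A match is a description of letters and not a site in use.

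The members made up 48 of 7915, 158 of 8967, 33 of 7673 and 53 of 6595 kept barcodes. The Trdc arm gave 15, 63, 13 and 24 cells, which is 0.190% (0.106 to 0.312), 0.703% (0.540 to 0.898), 0.169% (0.0902 to 0.290) and 0.364% (0.233 to 0.541) of kept barcodes. The share was highest in cHet PD, next in cKO PD, and lower in both controls. The PD share was 3.71-fold that of the control in cHet (2.09 to 7.01) and 2.15-fold in cKO (1.05 to 4.59). The cKO PD share was 0.518 of the cHet PD share (0.309 to 0.841), and the cKO control share was 0.894 of the cHet control share (0.391 to 2.01).

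These shares turned with the denominator and with depth. Ptprc was found in 184, 1120, 202 and 821 kept barcodes, and of these the Trdc arm was 8.15%, 5.63%, 6.44% and 2.92%, which is lower in PD than in control. Per leukocyte barcode the PD to control ratio was 0.690 in cHet (0.388 to 1.30) and 0.454 in cKO (0.222 to 0.971). With only barcodes of at least 1501 UMIs in every library, the Trdc arm held 15, 41, 13 and 6 cells, and the cKO PD share then lay below the cKO control (log2 ratio -0.49). Dropping cells with any Krt5, Krt14 or Lyz2 UMI left 5, 43, 3 and 16 cells. This setting is called without keratin or Lyz2 UMIs below, and it did not look at other keratins. Counts of captured leukocytes, depth and the number of gamma-delta T cells in the tissue cannot be told apart here.

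**Figure D1:**
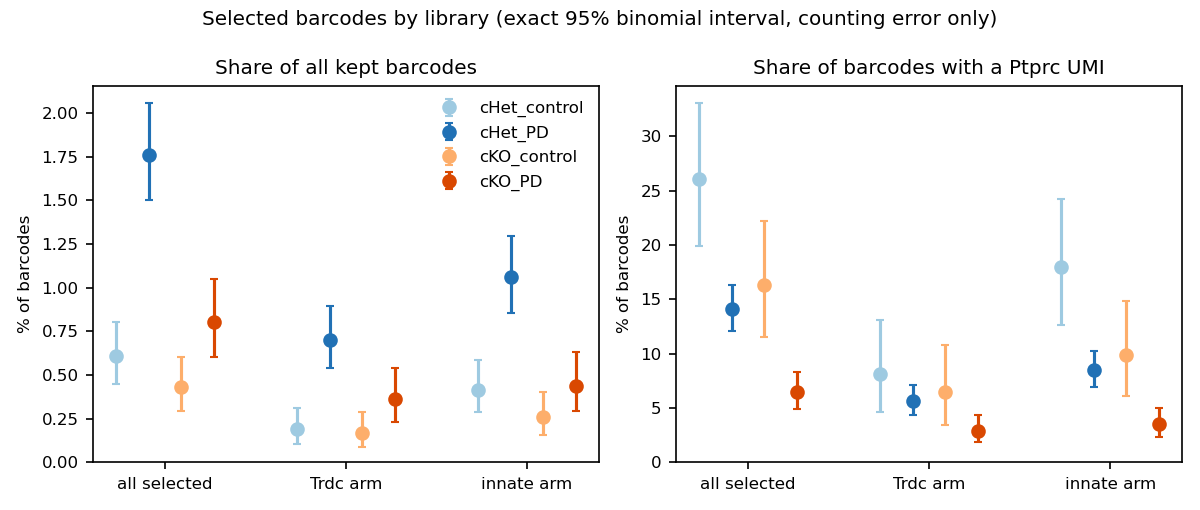
Barcodes taken by the rule in each library, all together and by arm, in percent of kept barcodes (left) and of barcodes with a Ptprc UMI (right), with points for the share and bars for its exact 95% binomial interval. On the left the Trdc arm reaches 0.703% in cHet PD and 0.364% in cKO PD, against 0.190% and 0.169% in the controls.

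The 2 arms differed in how well they held to the name lymphocyte. In the Trdc arm 98 of 115 cells also held a UMI of Cd3d, Cd3e or Cd3g, the signalling chains of the T cell receptor, and Il7r, the receptor for the survival cytokine interleukin 7, was found in 83. Ncr1, a natural killer cell receptor, was found in 0 of 115. In the innate arm Ncr1 was found in 4 of 177 cells and Klrb1c in 7, while Il7r was found in 121, Klrb1b in 95, Rora in 93 and Gata3 in 43. At the edge of the rule, 14 members held a single Trdc UMI and 29 held an innate sum of exactly 3. Just outside, 52 barcodes had a sum of 2 and 113 held Trdc without a Ptprc UMI.

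Transcripts of alpha-beta T cells were also read in the Trdc arm. The summed level of the alpha-beta list (Trac, Trbc1, Trbc2, Cd4, Cd8a, Cd8b1, Cd5 and Cd40lg) was 305, 487, 503 and 339 CPM (UMIs of a gene per 1000000 UMIs of the summed cells) in the Trdc arm. It was 2139, 1970, 2834 and 1980 CPM in the alpha-beta gate, which is cells with Cd3 and alpha-beta receptor but no Trdc. That gate requires Trac, Trbc1 or Trbc2, which fixes a higher sum there. In the Trdc arm 55 of 115 cells held a Trac, Trbc1 or Trbc2 UMI. Foxp3, the master factor of regulatory T cells, was at 0 in the Trdc arm of all 4 libraries.

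Transcripts of other cells were read in the Trdc arm as well, and their part in the results was not tested. The 17 keratinocyte markers summed to 3374, 4763, 3194 and 4141 CPM, with 12 to 15 of them seen in each library. The 10 neutrophil markers summed to 38.1, 414, 65.6 and 679 CPM and so were higher in PD, with Ly6g at 0 in all 4 libraries. Of the 11 monocyte and macrophage markers, C1qa, C1qc and Mrc1 were at 0 in every library and the sum did not pass 32.5 CPM, and of the 12 dendritic markers Flt3 and Xcr1 were at 0. The 8 fibroblast markers summed to 13878, 195, 65.6 and 102 CPM, the first mostly from 1 deep cell with 724 Sparc UMIs. The 8 gland and nasal markers were at 0 except in the cKO control (2559.9 CPM), and the 7 erythroid markers reached 1006 CPM in cHet PD.

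Leiden clustering of all 292 members without the genes of the rule gave 8 clusters, described by the genes that lead them. Cluster 1 (65 cells, 54 of the Trdc arm) and cluster 2 (50 cells, 48 of the Trdc arm) were gamma-delta T-like. Cluster 1 was led by Icos, a costimulatory receptor, at 3774 CPM against 283 in the other members, with Il17a at 2268 CPM and the chemokine receptor Cxcr6 at 1463 CPM. Cluster 2 was led by the gamma chain constant gene Trgc1 at 1893 CPM and by Cd163l1, a scavenger receptor of interleukin-17 gamma-delta T cells, at 1296 CPM. Il17a lay at 1279 CPM there, so both clusters held it. Cluster 1 had 1, 42, 0 and 22 cells by library and cluster 2 had 14, 15, 14 and 7.

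The innate arm split into lymphocyte-like and other cells. Cluster 5 (31 cells, 23 of the innate arm) was natural killer-like, with granzyme A (Gzma) in 16 cells, the transcription factor Eomes at 814 CPM and the granule protein gene Nkg7 in 24 cells. Cluster 7 (21 cells, 20 of the innate arm) was type 2 innate lymphoid-like. Its name rests on Il1rl1, the interleukin 33 receptor, in 8 cells, Calca, the gene of the peptide CGRP, in 9 and the growth factor gene Areg in 10. Rora in 21 cells and Gata3 in 14 belong to the rule, which fixed part of their presence. Il5 was found in 4 of its cells and Il13 in 1.

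The remaining 121 of 177 innate-arm cells fell into clusters led by genes of other cells. Cluster 3 (43 cells) was macrophage-like with C1qc, Ptgs2 and Tgfbi among its leading genes, and cluster 6 (29 cells) was dendritic-like with the homing receptor Ccr7 and the chemokine Ccl22. Cluster 4 (43 cells) was left unnamed, with Sparc, Mfge8 and Cd207, a lectin of Langerhans cells, among its leading genes. Cd207 was in 30 of its cells and Sparc in 10. Its dendritic markers summed to 18814 CPM, against 17892 CPM in cluster 6 and 13827 CPM in cluster 3. Cluster 8 (10 cells) was keratinocyte-like, led by Krt10 and Krt1. Il7r was found in 32 of 43, 28 of 43 and 26 of 29 cells of clusters 3, 4 and 6, and Klrb1b in 23, 35 and 21, so the rule's own transcripts admitted them. H2-Ab1, an MHC class II chain of antigen-presenting cells, was in 26 of 33, 54 of 95, 12 of 20 and 14 of 29 innate-arm cells, against 0, 1, 0 and 0 cells of the Trdc arm. Of the 177 innate-arm cells 43 lay in the innate lymphocyte-like clusters 5 and 7, and 13 more in the gamma-delta T-like clusters 1 and 2. Foxp3 had 12 UMIs in 5 innate-arm cells, which lay in cluster 1. The label of innate lymphocytes thus held for 43 of 177 cells of that arm by these clusters, and the gene comparisons that follow are given for the Trdc arm.

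**Figure D2:**
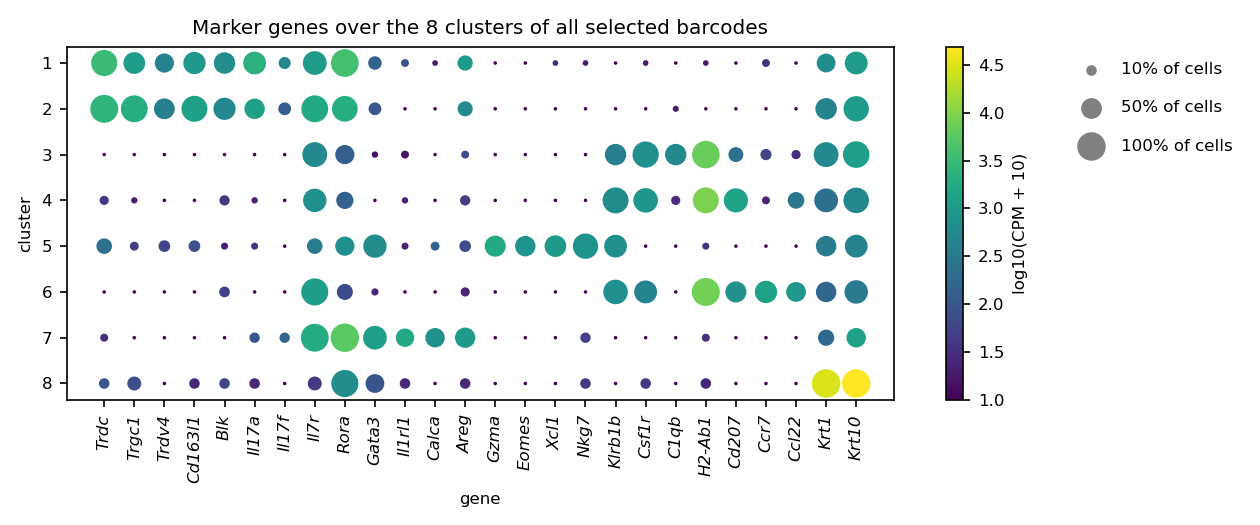
Named genes (horizontal) over the 8 clusters (vertical) of the 292 barcodes taken, where a point's size is the share of the cluster's cells with a UMI and its colour log10 of the summed CPM plus 10. Trdc and Il17a mark clusters 1 and 2, Gzma cluster 5 and Il1rl1 cluster 7, while H2-Ab1 marks clusters 3, 4 and 6.

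For gene levels, UMIs of the Trdc arm were summed per library and scaled to CPM. A gene with at least 20 UMIs over 2 libraries was counted as apart where the levels differed at least 2-fold with 10 CPM added, the interval excluded 1 and at least 5 cells of the higher library held it. Between cHet PD and its control 252 of 1783 genes were higher (14.1%) and 100 lower (5.61%). In cKO 59 of 687 were higher in PD (8.59%) and 83 lower (12.1%). The PD libraries differed at 63 genes higher in cKO (4.02% of 1566) and 73 lower (4.66%), and the controls at 101 higher in cKO (11.2% of 901) and 36 lower (4%). TMM scaling moved all log2 ratios by 0.17, -0.13, -0.35 and -0.02 in these 4 comparisons. The share of higher genes among those apart then went from 71.6% to 82.6%, from 41.5% to 29.3%, from 46.3% to 11.8% and from 73.7% to 71.5%.

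Both genotypes shared 23 genes higher in PD, which is 9.13% of the cHet list and 39.0% of the cKO list. They included the costimulatory receptors Icos and Tnfrsf9 (4-1BB), the adhesion receptor Cd44, the chemokine receptor Cxcr4, the polyamine enzyme gene Odc1 and the hypoxia factor Hif1a. Both also shared 26 lower genes, 26.0% of the cHet and 31.3% of the cKO list. Among these were the early response genes Egr1, Fosb, Btg2 and Klf4 and several ribosomal protein genes. In opposite directions 4 genes were apart. Over all genes considered, 14.1% were higher and 5.61% lower in cHet PD, and 8.59% higher and 12.1% lower in cKO PD. The 9.13% thus lay near the 8.59% of cKO. How many genes were considered in both genotypes is not given here, so the shared and opposite counts have no background of their own. Without the deepest cells the shared counts were 14 higher, 22 lower and 5 opposite. With a common floor of 1501 UMIs they were 9, 17 and 3, and without alpha-beta receptor UMIs they were 14, 0 and 0. Without keratin or Lyz2 UMIs they were 8, 0 and 0. The last pair of settings left 3 cells in the cKO control.

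Interleukin 17 transcripts were common in the Trdc arm. Il17a was found in 6 of 15, 37 of 63, 8 of 13 and 13 of 24 cells, with 19, 254, 76 and 45 UMIs, or 362, 2061, 1663 and 1527 CPM. The cHet control was low, and the counting intervals of the other 3 libraries overlapped. The deepest cHet control cell held 13595 of that library's 52457 Trdc-arm UMIs and 0 of Il17a, so the level without it would be higher. Il17a was 5.69-fold higher in cHet PD than in the cHet control (3.57 to 9.61), whereas cKO PD was 0.919 of the cKO control (0.621 to 1.35). Between PD libraries cKO was 0.741 of cHet (0.527 to 1.02), and between controls cKO was 4.59-fold higher (2.75 to 8.04). In the cKO control 1 cell held 46 of the 76 Il17a UMIs, and without that cell the level was 740.2 CPM. With the deepest cell of each control and the deepest 4 and 2 cells of the PD libraries left out, the log2 ratio of the controls fell from 2.17 to 0.59. Without keratin or Lyz2 UMIs, which leaves 5 and 3 control cells, it was -2.59.

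Depth bore on the share of Il17a-positive cells. Thinned to 1000 UMIs a cell, the share was 20.0%, 58.9%, 30.8% and 43.8%, against 40.0%, 58.7%, 61.5% and 54.2% before thinning. Thinning left out 0, 7, 0 and 8 shallower cells, and after it the share in both PD libraries lay above both controls. In cKO this rested on 4 of 13 control cells and 7 of 16 PD cells in a single random draw. Those libraries then held 25 and 29 Il17a UMIs, so UMIs per cell were not higher in cKO PD. In all other kept barcodes Il17a was found in 0.0890%, 0.556%, 0.183% and 0.428%, and in the alpha-beta gate in 0 of 10, 5 of 55, 2 of 21 and 3 of 22 cells. The share in the Trdc arm was above both in every library.

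Il17f, the partner cytokine of Il17a, was found in 0, 10, 3 and 4 cells with 0, 49, 5 and 17 UMIs. It was absent from the counts of the cHet control and highest in level in cKO PD, at 577 CPM. cHet PD was at least 6.95-fold higher than its control, taking 3 counts for the 0, and cKO PD was 5.27-fold higher than the cKO control (1.87 to 18.3), with 14 of its 17 UMIs in 1 cell. Of the 17 cells with Il17f over the 4 libraries, 15 also held Il17a. Il22, a cytokine of epithelial repair, had only 0, 7, 0 and 1 UMIs.

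Among receptors and identity genes of the interleukin-17 programme, Il23r was higher in cHet PD than in its control, while Cd163l1, Blk and Maf stayed within 2-fold. Il23r, the receptor for the cytokine that sustains these cells, had 6, 66, 20 and 11 UMIs, or 114, 535, 438 and 373 CPM. The cHet control was lowest, and cHet PD was 4.68-fold higher (2.04 to 13.2) while cKO PD was 0.853 of its control (0.369 to 1.87). Cd163l1 lay in 12 of 15, 41 of 63, 13 of 13 and 16 of 24 cells at 991, 844, 1335 and 1188 CPM. Over all cells the PD to control ratio of Cd163l1 was 0.851 in cHet (0.605 to 1.21) and 0.890 in cKO (0.570 to 1.37), so both intervals held 1. The deepest cHet control cell held 13595 of that library's 52457 Trdc-arm UMIs and 0 of Cd163l1. Without it the cHet ratio would be lower, and whether its interval would still hold 1 is not given here. The kinase gene Blk (515, 592, 328 and 611 CPM) and Maf (1639, 1241, 1181 and 1358 CPM) had no ratio of 2-fold in any of the 4 comparisons.

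Sox13, a factor of interleukin-17 gamma-delta T cell development, had 13, 11, 11 and 0 UMIs and was 2.78-fold lower in cHet PD than in its control (1.15 to 6.85). In cKO PD it was at least 2.36-fold lower than in the cKO control. Rora, a rule gene of the innate arm but not of this one, lay at 1163, 2864, 2297 and 3530 CPM and was 2.46-fold higher in cHet PD (1.87 to 3.29). Without the deepest cells that log2 ratio was 0.84, under the 2-fold mark. Trgc1 was 2249, 1128, 1378 and 1018 CPM, highest in the cHet control, and its PD to control ratio was 0.501 in cHet (0.389 to 0.646). The delta variable gene Trdv4 was found in 11, 21, 10 and 9 cells at 438, 300.2, 350.1 and 543 CPM, and the interval of each of its 4 ratios held 1.

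**Figure D3:**
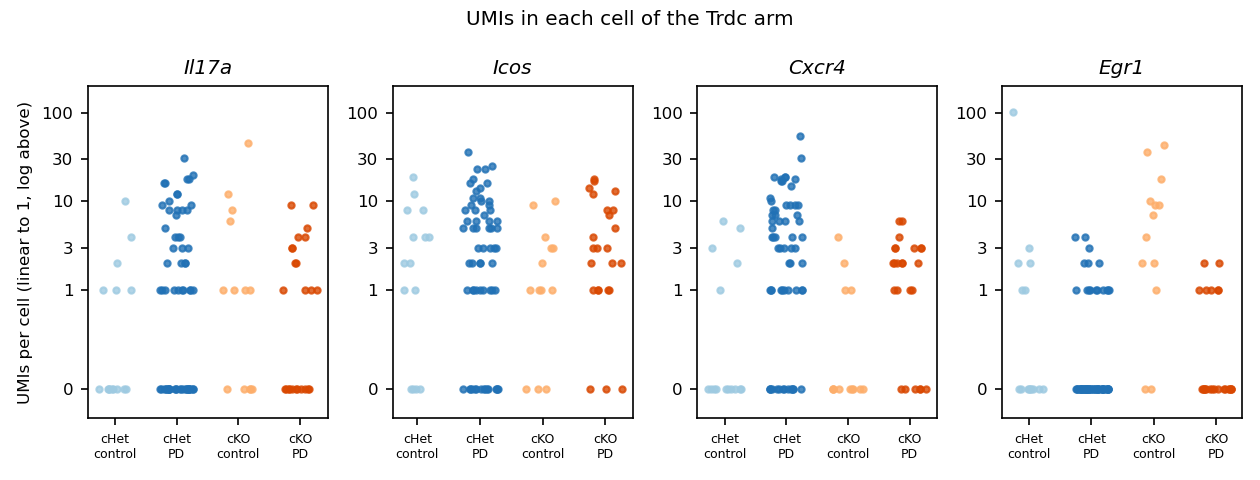
UMIs of Il17a, Icos, Cxcr4 and Egr1 in each cell of the Trdc arm by library, with 1 point a cell on an axis that is linear to 1 UMI and logarithmic above. Single cells carry much of some sums, as the cKO control cell with 46 Il17a UMIs and the cHet control cell with 102 Egr1 UMIs show.

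Over the list of 20 interleukin-17 programme genes there was no common shift. In cHet 6 of 13 measured genes were at least 1.5-fold higher in PD and 3 lower, with a median log2 ratio of 0.20, against 36.4% higher, 19.9% lower and a median of 0.20 over all measured genes. In cKO 5 of 14 were higher and 3 lower with a median of 0.04, beside 30.7%, 26.7% and 0.05 over all genes. The gamma-delta receptor list had 1 of 6 genes higher and 3 lower in cHet PD (median -0.76), and 2 of 5 higher and 2 lower in cKO PD (median -0.43), to be read beside the same shares over all genes.

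Icos was higher in PD in both genotypes. It was found in 11, 48, 10 and 21 cells with 65, 363, 35 and 126 UMIs, or 1239, 2945, 766 and 4277 CPM. Both PD libraries lay above both controls, and the intervals of PD and control did not overlap. The PD to control ratio was 2.38 in cHet (1.82 to 3.14) and 5.58 in cKO (3.81 to 8.37). Without the deepest cells the cHet log2 ratio fell from 1.24 to 0.84, under the 2-fold mark. In the alpha-beta gate Icos was 1233, 2332, 1569 and 3795 CPM, so those T cells also held more in PD.

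Cxcr4, the receptor for the chemokine CXCL12, had 17, 402, 8 and 47 UMIs in 5, 49, 4 and 18 cells of the Trdc arm, or 324, 3262, 175 and 1595 CPM. It was 10.1-fold higher in cHet PD than in control (6.21 to 17.4) and 9.11-fold higher in cKO PD (4.27 to 22.3). Between PD libraries cKO was 2.04-fold lower than cHet (1.51 to 2.83), and that log2 ratio moved from -1.03 to -0.87 without the deepest cells. The same gene was 226, 2008, 177 and 1914 CPM in the alpha-beta gate and 3.25, 140.3, 4.41 and 141 CPM in all other kept barcodes. The level was therefore also higher in PD in the alpha-beta gate and in the pooled sum of the other kept barcodes. Barcodes with Ptprc numbered 184, 1120, 202 and 821, and the part of cell composition in that pooled sum was not tested.

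Odc1, Cd44, Tnfrsf9 and Hif1a are named because both genotypes shared them among the genes higher in PD. Odc1 was 839, 2288, 503 and 2919 CPM, 2.73-fold higher in cHet PD (1.98 to 3.84) and 5.80-fold in cKO PD (3.63 to 9.63). Cd44 was 1048, 2491, 875 and 2783 CPM, with ratios of 2.38 (1.78 to 3.23) and 3.18 (2.15 to 4.76), and Tnfrsf9 was 172, 1087, 197 and 611 CPM, with ratios of 6.34 (3.24 to 14.2) and 3.10 (1.32 to 7.84). Without the deepest cells the cHet log2 ratio of Cd44 was 0.90. Hif1a, at 95.3, 633, 197 and 509 CPM, was 6.64-fold higher in cHet PD (2.73 to 21.0) and 2.59-fold in cKO PD (1.06 to 6.70). All 4 genes were highest in a PD library. Odc1, Cd44 and Hif1a were also higher in PD in the pooled sum of the other kept barcodes, where the part of cell composition was not tested. For Hif1a those levels were 143, 438, 185 and 657 CPM.

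Some activation genes were counted as apart between PD and control in only 1 genotype. The inhibitory receptor gene Ctla4 had 1, 47, 4 and 5 UMIs, 20.0-fold higher in cHet PD than in control with a wide interval (3.42 to 807). Its 4 and 5 UMIs in cKO fell short of the 20 required, so cKO was not compared. Cd69, an early activation and tissue-retention antigen, was 572, 1039, 1466 and 543 CPM and in cKO PD was 0.370 of its control (0.2004 to 0.646), but was 1.82-fold higher in cHet PD (1.21 to 2.80). With the common UMI floor the cKO log2 ratio of Cd69 was -0.48 in place of -1.42. Both Cd69 intervals excluded 1, in opposite directions, and the difference between the genotypes in Cd69 was not tested. Over the activation list 11 of 15 measured genes were higher and 1 lower in cHet PD, with a median of 1.22, beside 36.4% and 19.9% of all genes. In cKO PD 4 of 10 were higher and 4 lower, with a median of 0.16, beside 30.7% and 26.7%.

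**Figure D4:**
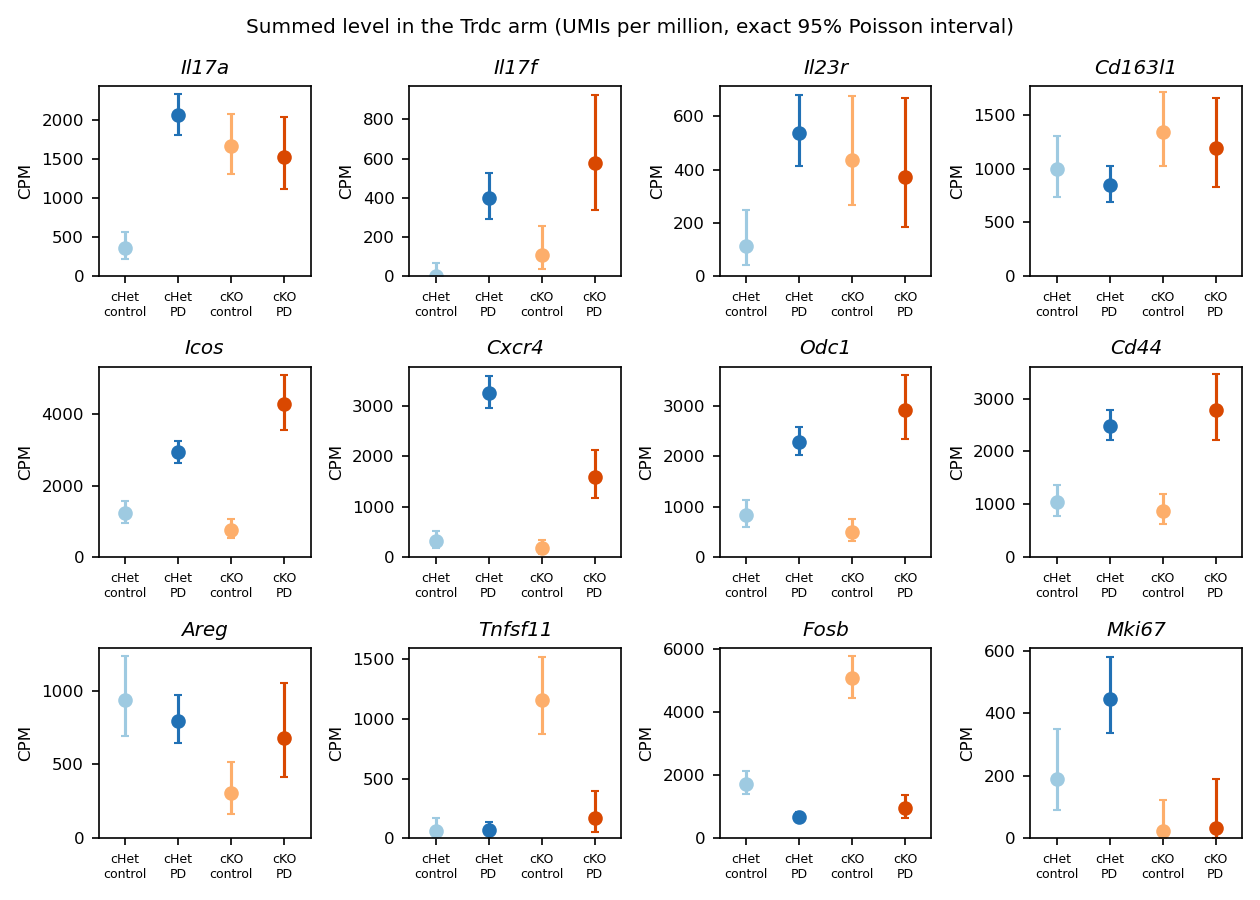
Summed level of 12 genes in the Trdc arm of each library, in CPM, with the exact 95% Poisson interval as bars. Icos, Cxcr4, Odc1 and Cd44 are higher in both PD libraries than in both controls, while Cd163l1 stays between 844 and 1335 CPM.

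Genes of the immediate early response are switched on within minutes of a stimulus and also during tissue dissociation. Of these, Fosb, Btg2 and Klf4 were lower in PD in both genotypes over all cells of the Trdc arm. Fosb was 1735, 673, 5076 and 950.4 CPM, highest in the cKO control, and was 2.58-fold lower in cHet PD (1.89 to 3.51) and 5.34-fold lower in cKO PD (3.60 to 8.21). Btg2, an antiproliferative gene, was 667, 227, 1838 and 272 CPM and was 2.94-fold lower (1.74 to 5.01) and 6.77-fold lower (3.28 to 16.2). Klf4 was 2249, 649, 3610.1 and 747 CPM, 3.47-fold lower (2.59 to 4.66) and 4.83-fold lower (3.09 to 7.93). Without keratin or Lyz2 UMIs, which leaves 5 cHet control cells, the cHet log2 ratios turned to 4.47 for Btg2, 0.079 for Fosb and 0.11 for Klf4. The 10 CPM added set the size of the Btg2 value, which is not a measured fold. The 3-count bound for a count of 0 was not used there. Over the list 16 of 29 measured genes were lower and 3 higher in cHet PD, with a median of -0.88, and 23 of 27 were lower and 1 higher in cKO PD, with a median of -1.09. All measured genes gave 19.9% lower with a median of 0.20 in cHet and 26.7% lower with a median of 0.05 in cKO.

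On the cHet side Egr1 and the list median leaned on few cells. Fosb was spread more widely, with 30 UMIs in the deepest cHet control cell and up to 17 in others. Egr1 had 111, 27, 141 and 9 UMIs in 6, 16, 11 and 7 cells, and 102 of the 111 in the cHet control came from its deepest cell, which also held 724 Sparc UMIs, a fibroblast gene, and 2 Trdc UMIs. Egr1 was 9.66-fold lower in cHet PD and 10.1-fold lower in cKO PD (5.17 to 22.5), but without the deepest cells the cHet log2 ratio was -0.01. The cHet median of the early response list was then -0.22, and it was 0.98 among the cells without keratin or Lyz2 UMIs, of which the cHet control held 5. In the other kept barcodes Egr1 was 1486, 1042, 1424 and 1232 CPM. The part of dissociation or of the barcode floor in these differences was not tested.

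Among effector genes beyond interleukin 17, Tnfsf11 and Tnf were highest in the cKO control. Tnfsf11, which encodes RANKL, the cytokine that drives osteoclasts, had 3, 9, 53 and 5 UMIs in 2, 7, 6 and 4 cells, or 57.2, 73, 1159.6 and 169.7 CPM. The cKO control stood above the other 3 libraries, with 28 of its 53 UMIs in 1 cell. It was 20.3-fold above the cHet control (6.57 to 101), and cKO PD was 6.83-fold below it (2.75 to 21.9). Tnf had 3, 11, 19 and 2 UMIs, and cKO PD was 6.12-fold lower than the cKO control (1.48 to 54.2).

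Areg, the growth factor amphiregulin of epithelial repair, was 934, 795, 306 and 679 CPM in 7, 14, 3 and 4 cells. It was 3.05-fold lower in the cKO control than in the cHet control (1.66 to 5.98). The PD libraries differed little, with a cKO to cHet ratio of 0.854 (0.500 to 1.39). Few cells carried these sums. Single cells of the cHet control held 20, 15 and 8 Areg UMIs, a cKO control cell held 10 and a cKO PD cell 14. No other cell of either control held more than 3. Areg was found in 28 of 115 cells, of which 21 also held Il17a and 25 held Cd163l1. The gland and nasal transcript Obp1a was found in 8 of 13 Trdc-arm cells of the cKO control and in 46.6% of its other kept barcodes, and in no Trdc-arm cell of the other libraries. Its part in the differences between the controls was not tested.

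Cytotoxic and natural killer genes appeared in few cells of the Trdc arm, all of them in cHet PD for the 3 genes given here. Gzma had 0, 37, 0 and 0 UMIs in 0, 4, 0 and 0 cells, the chemokine gene Xcl1 0, 23, 0 and 0 UMIs and Nkg7 0, 20, 0 and 0 UMIs. The other 3 libraries were at 0, and they also held fewer Trdc-arm cells. Against the cHet control Xcl1 was at least 3.26-fold and Nkg7 at least 2.84-fold higher. Against cKO PD the bounds were 1.83-fold and 1.59-fold. None of the 4 cells with Gzma held Il17a. The 12 natural killer markers had 90 UMIs in the Trdc arm of cHet PD. Of these 76 lay in the 11 cells without a Cd3 UMI, at 4925 CPM, against 129.8 CPM in the 52 cells with one. Of the 8 Trdc-arm cells in the natural killer-like cluster, 7 were from cHet PD and 1 from cKO PD.

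Proliferation genes were highest in cHet PD. Mki67, a marker of dividing cells, had 10, 55, 1 and 1 UMIs in 5, 13, 1 and 1 cells, Top2a, which untangles DNA at division, 16, 68, 0 and 1 UMIs, and Stmn1, a microtubule regulator, 7, 64, 6 and 4 UMIs. In cKO PD and the cKO control Mki67 was down to 1 UMI each. Stmn1 was 3.89-fold higher in cHet PD than in control (1.78 to 10.1) and 3.82-fold lower in cKO PD than in cHet PD (1.42 to 14.5), and the latter log2 ratio of -1.86 was 0.24 in cells without alpha-beta receptor UMIs. The cKO PD to cHet PD ratio of Mki67 was 0.0761 (0.00189 to 0.442). Of 14 measured cell cycle genes 14 were lower and 0 higher in cKO PD than in cHet PD, beside 30.1% lower and 19.9% higher over all genes. The median was -3.28, or -1.08 with the 6 genes at 0 put at their bound, and it was -0.45 in cells without alpha-beta receptor UMIs. The Mki67 difference of cHet PD from its control, 2.34-fold (1.18 to 5.15), had a log2 ratio of 1.19, which was 0.54 without the deepest cells and -0.30 in cells without alpha-beta receptor UMIs. In those cells the cell cycle median of cHet PD against its control was -0.72 in place of 1.22.

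**Figure D5:**
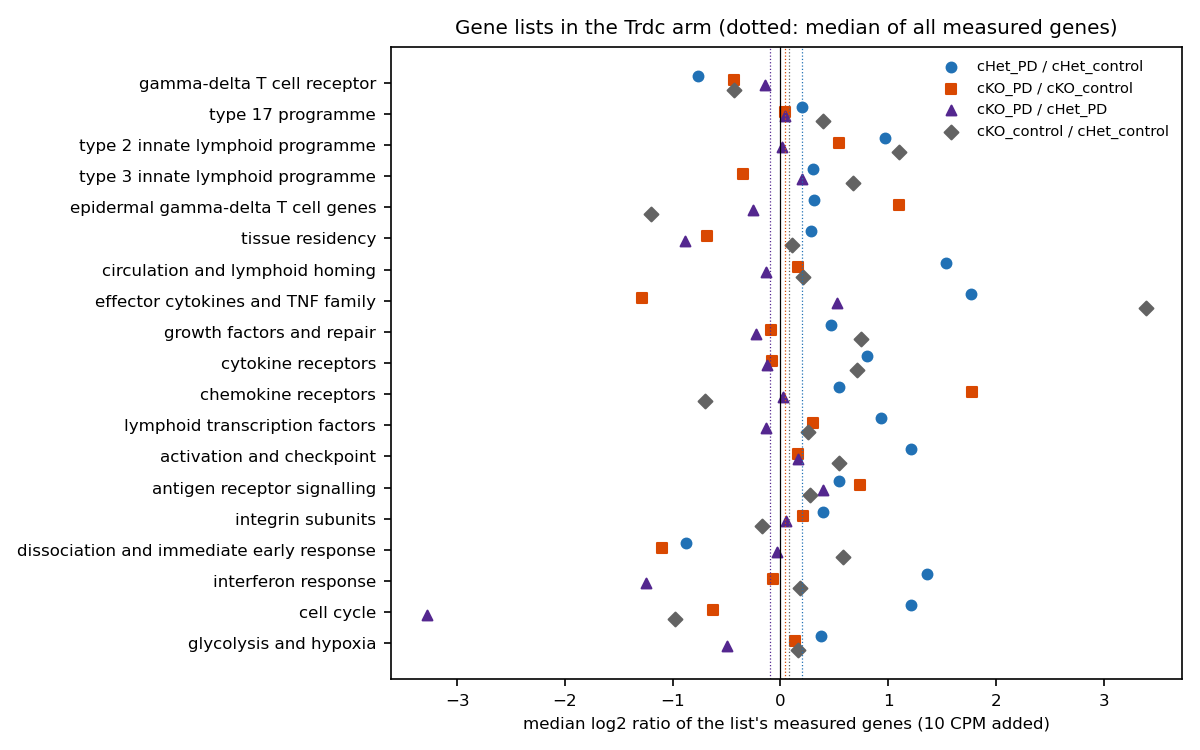
Median log2 ratio, with 10 CPM added, of the measured genes of each list (vertical) in the Trdc arm for the 4 comparisons (marker shapes), with dotted lines for the median of all measured genes. The early response list lies at -0.88 and -1.09 in the PD to control comparisons. The cell cycle list lies at -3.28 between the PD libraries, or at -1.08 with its 6 genes at 0 put at their bound.

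For the lists that follow, all measured genes gave 36.4% higher, 19.9% lower and a median of 0.20 in cHet and 30.7%, 26.7% and 0.05 in cKO. Of 20 measured lymphoid transcription factor genes 12 were higher and 1 lower in cHet PD (median 0.93), and of 16 in cKO PD 7 were higher and 2 lower (median 0.30). Cytokine receptor genes were 11 higher and 1 lower of 19 in cHet PD (median 0.80), and 3 higher and 3 lower of 11 in cKO PD (median -0.08). Runx3, a factor of cytotoxic and resident T cells, had 11, 65, 23 and 3 UMIs, or 209.7, 527, 503 and 102 CPM, and the 2 genotypes lay in opposite directions. It was 2.51-fold higher in cHet PD than in control (1.32 to 5.28) and 4.94-fold lower in cKO PD than in control (1.49 to 25.7). After thinning to 1000 UMIs a cell the cHet log2 ratio of Runx3 was 0.05 in place of 1.29. The antigen receptor signalling list had 7 of 17 genes higher and 3 lower in cHet PD (median 0.55), and 8 of 15 higher and 2 lower in cKO PD (median 0.74).

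Itga9, the gene named in both genotypes, had 0 UMIs in the Trdc arm of all 4 libraries. In the innate arm it had 15, 8, 1 and 7 UMIs in 5, 3, 1 and 2 cells, and in the other kept barcodes 5.94, 6.98, 7.73 and 8.96 CPM. The label check of the deletion can therefore not be made in the Trdc arm. Of other integrins, Itgav had 17, 67, 5 and 19 UMIs and was 5.90-fold higher in cKO PD than in the cKO control (2.13 to 20.2), where only 3 cells held it. Itgae, the CD103 chain that binds E-cadherin on epithelium, was 515, 292, 219 and 475 CPM and was 2.35-fold lower in the cKO control than in the cHet control (1.10 to 5.45). Of 8 measured integrin genes 3 were higher and 2 lower in cHet PD (median 0.40), and of 6 in cKO PD 3 were higher and 1 lower (median 0.21). Over all measured genes the medians were 0.20 and 0.05, with 36.4% higher and 19.9% lower in cHet and 30.7% and 26.7% in cKO.

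Over all 292 barcodes, both arms together, the comparisons took in the non-lymphoid clusters as well. In cHet PD 641 of 5400 genes were higher than in control (11.9%) and 434 lower (8.04%), and in cKO PD 305 of 3173 were higher (9.61%) and 302 lower (9.52%). Acod1, an enzyme of activated myeloid cells, had 0, 206, 0 and 80 UMIs, in no control cell and in 30 and 6 PD cells. It was at least 42.7-fold higher in cHet PD and at least 33.6-fold higher in cKO PD. Ccr7 had 6, 189, 3 and 4 UMIs and was 19.6-fold higher in cHet PD than in control, and C1qa, a complement gene of macrophages, had 50, 4, 21 and 1 UMIs. Ccr7 led the dendritic-like cluster and C1q genes the macrophage-like one.

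Between the PD libraries 209 of 4837 genes were higher in cKO (4.32%) and 316 lower (6.53%), and between the controls 153 of 4049 were higher in cKO (3.78%) and 147 lower (3.63%). Gzma had 0, 147, 0 and 0 UMIs over all members and was at least 15.4-fold lower in cKO PD than in cHet PD. Car6, a secreted carbonic anhydrase of salivary gland, had 17, 0, 10 and 911 UMIs, and 99.0% of the cKO PD count lay in 1 cell. Ltf, which encodes lactoferrin, had 7, 2, 18 and 1031 UMIs, with 96.9% in 1 cell. Those 2 values thus describe single barcodes of the cKO PD library.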

How the data were processed

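The files hold UMI counts per gene and barcode, deposited by the authors, who used fastp, STARsolo 2.7.10a and mm10, per the submitters' processing notes. The labels' description names 10x Genomics and the extraction protocol BD Rhapsody, and the barcodes are 27 bases long. The part of the authors' filter in the different lowest totals (1501 UMIs in controls, 500 in PD) is not given in the sources used here. Barcodes with at least 200 genes and at most 20% mitochondrial UMIs were kept. Doublets were not called, and leaving out the deepest 5% of members was an alternative. UMIs of the chosen cells were summed per library, and ratios were given exact conditional binomial intervals, levels exact Poisson intervals and shares exact Clopper-Pearson intervals. With 1 library per group no test was possible. Depth limits low genes: 3 counts were taken as the bound for a count of 0. The procedure was tested on simulated data. These were Poisson counts per library, without the concentration of UMIs in single cells described above, so they do not cover that source of differences. Clusters were made with scanpy 1.11.5 from members scaled to 10000 UMIs, without the genes of the rule, and named only by listed markers. TMM scaling used edgeR 4.0.16. Python packages were numpy 2.4.6, pandas 2.3.3, scipy 1.17.1 and matplotlib 3.10.9. A list gene was measured with at least 10 UMIs over 2 libraries and counted from 1.5-fold.

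Genes named are a fixed set, up to 10 genes of each direction and comparison with the largest ratio among those in at least 10% of the members of the higher library, and up to 4 of each list by level or ratio. Genes shared by both genotypes, the leading genes of clusters, and Obp1a, Sparc, Car6 and Ltf were also named after their values were seen. Members, lists and rules were chosen with earlier results of these data known. Alternatives chosen after seeing the data were the gene comparisons for each arm alone, the Trdc arm with a Cd3 UMI, and the rule without Ptprc. Promoter sequences are from RefSeq (GRCm38.p6), and gene positions from GENCODE M21 (GRCm38).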

Additional observations from a re-analysis of the deposited data

Results flagged for a closer look

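In the Trdc arm 2 named genes lay in opposite directions in PD against control in the 2 genotypes, and the difference between the genotypes was not tested. Ier5, an early response gene, had a log2 ratio of 1.07 in cHet and -1.003 in cKO. Runx3 had a log2 ratio of 1.29 in cHet and -2.20 in cKO, and after thinning to 1000 UMIs the cHet ratio was 0.05.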

How the results depend on the processing

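No paired analysis was possible because no group holds more than 1 library. Shares are given here as log2 ratios of kept barcodes, and every alternative leaves the rest as in the report. The setting without keratin or Lyz2 UMIs looked at Krt5, Krt14 and Lyz2 only. For all 292 members the cHet PD to control ratio of 1.54 became 0.92 with a 10% mitochondrial cap, 2.59 after thinning to 1000 UMIs, 2.95 without keratin or Lyz2 UMIs, -0.89 per Ptprc barcode and -1.18 without the Ptprc requirement. The cKO PD to control ratio of 0.90 became 0.11 with the common UMI floor, 2.08 without keratin or Lyz2 UMIs, -1.34 per Ptprc barcode and -0.69 without the Ptprc requirement. Between PD libraries -1.13 became -2.14 with the floor, -1.61 after thinning and -0.46 without the Ptprc requirement, and between controls -0.50 became 0.51 after thinning. For the Trdc arm the cHet ratio of 1.89 became 2.89 after thinning, 2.92 without keratin or Lyz2 UMIs and -0.54 per Ptprc barcode. The cKO ratio of 1.10 became -0.49 with the floor, 2.63 both without keratin or Lyz2 UMIs and without alpha-beta receptor UMIs, and -1.14 per Ptprc barcode. Between PD libraries -0.95 became -2.51 with the floor.

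Counts of genes apart moved as follows. They are to be read beside the genes considered, which fell under most settings. The order is cHet PD to control, cKO PD to control, PD libraries and controls. For all members the counts were 1075, 607, 525 and 300 of 5400, 3173, 4837 and 4049 genes considered. With 50 CPM added they were 435, 374, 197 and 94 of the same genes. With 50 UMIs required they were 599, 259, 282 and 96 of 2875, 1198, 2453 and 1719. After thinning they were 343, 111, 135 and 53 of 2014, 625, 1919 and 700. Without keratin or Lyz2 UMIs they were 464, 205, 297 and 106 of 3015, 1071, 3170 and 777. Without the deepest cells the PD libraries gave 283 of 4133. For the Trdc arm the counts were 352, 142, 136 and 137 of 1783, 687, 1566 and 901 genes considered. With 50 UMIs required they were 151, 46, 48 and 43 of 618, 221, 545 and 281. After thinning they were 87, 48, 30 and 19 of 673, 214, 691 and 195. Without keratin or Lyz2 UMIs they were 138, 21, 85 and 7 of 883, 223, 967 and 144. The last 3 comparisons gave 22 of 276, 62 of 756 and 6 of 278 without alpha-beta receptor UMIs. The floor gave 90 of 500 in cKO and 43 of 1106 between PD libraries. The settings without alpha-beta receptor or keratin UMIs leave 3 Trdc-arm cells in the cKO control, and genes under 10 UMIs were not given there.

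Signs turned as follows in the Trdc arm, and the cause was not tested. In cHet PD against control, Mki67 was -0.30 and the cell cycle median -0.72 without alpha-beta receptor UMIs. Without keratin or Lyz2 UMIs Mki67 was -0.0071, Btg2 4.47, Fosb 0.079, Klf4 0.11 and the early response median 0.98. These values have 10 CPM added, which sets the size of the Btg2 value. In cKO PD against control, the effector cytokine median was 0.49 without alpha-beta receptor UMIs, and without keratin or Lyz2 UMIs Cd69 was 2.54, Nr4a3 1.17 and the tissue residency median 0.049. Between PD libraries Stmn1 was 0.24 and the tissue residency median 0.12 without alpha-beta receptor UMIs, and that median was 0.068 without keratin or Lyz2 UMIs. Between controls, thinning gave -0.27 for Runx3, -0.22 for the type 2 innate lymphoid median and 0.014 for the epidermal gamma-delta median. There the cell cycle median was 0.41 without alpha-beta receptor UMIs. Without keratin or Lyz2 UMIs Il17a was -2.59, Nr4a3 -0.54 and the cytokine receptor median -0.076.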
